A study of Mus musculus with 8 samples.

Results

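RNA of 2-cell mouse embryos sired by males carrying a KDM1A transgene (KDM1A TG) was compared with RNA of 2-cell embryos whose sires were littermates without the transgene (nonTG). The comparison used the 3 arrays whose genotype label is KDM1A TG and the 2 arrays labelled nonTG, which are 5 of the 8 arrays of the series. The other 3 arrays hold embryos of C57BL/6 sires. They took no part in the contrast, but added to the estimate of the spread between arrays and to the mean level that chose each gene's probeset and set the filter. Every gene with a probeset that carries 1 gene symbol was a member of the comparison, 14995 genes in all, each read from its brightest probeset. Of these, 11444 had a mean log2 level above 2.07, the 30th percentile of all probesets, and were tested.

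All dams were C57BL/6 females given 5 IU of each gonadotropin before mating, in every group. The oviducts were flushed between 46 and 48 hours after hCG, and 26 embryos on average were pooled for each RNA extraction. The groups therefore differ in the sire, and the genotype of the embryos in a pool was not determined. The sources used here do not give the background strain of the transgenic males, the promoter that drives the transgene or the number of males per group. The p-values thus reflect variation from pool to pool, part or all of which may be technical. The 3 and 2 arrays limit the precision of every value. In the fit, the spread drawn from all genes weighed 73 degrees of freedom, against 5 from each gene's own arrays. The SE of a gene thus rests mainly on the spread shared by all genes. The gene Col1a1, for example, had an SD of 2.45 in nonTG and an SE of 0.46. The question asked was whether the RNA of early embryos depends on the transgene of the father, with littermates of the same line as controls.

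KDM1A (LSD1) is a demethylase of lysine 4 of histone H3 and works in complexes with CoREST proteins and histone deacetylases. Methylation of this residue marks active promoters, and part of it is kept on the histones that remain in sperm. The 2-cell stage is when the mouse embryonic genome is first broadly transcribed, while RNA stored in the egg is being degraded.

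The deposited log2 values had medians of 2.73 to 2.86 in the 8 arrays. The 3 KDM1A TG arrays correlated pairwise at 0.940 to 0.967 across probesets, while the 2 nonTG arrays correlated at 0.902, the lowest of any pair among the 5 arrays. The spread of values was not equal either, with interquartile ranges of 2.38, 2.09 and 2.60 in KDM1A TG replicates 1, 2 and 3 and of 2.06 and 1.87 in nonTG replicates 1 and 2. No probeset carried the symbol Kdm1a alone, so the labels were not checked against the transgene. The labelled stage was set against the egg and 2-cell gene lists described below, whose mean log2 levels lay between 3.74 and 5.07 in the 5 arrays, against 3.71 to 3.96 for all genes. Dppa3, a maternal factor of the early embryo also called Stella, read log2 8.93, 10.01 and 8.87 in KDM1A TG against 7.83 and 9.10 in nonTG.

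Few genes differed between the groups beyond the spread. At an adjusted p under 0.05 in limma, 5 of 11444 genes passed (0.0437%), of which 4 were higher in embryos of KDM1A TG sires (0.035%) and 1 was lower (0.00874%). Without adjustment, 569 genes were higher (4.97%) and 164 lower (1.43%) at a p under 0.05. The median log2 change over all genes was 0.16, and 7485 of the 11444 genes had a change above 0. A log2 change of at least 1 was seen in 125 genes on the higher side (1.09%) and 40 on the lower (0.35%). Changes of gene groups are therefore given beside this median or relative to it.

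The largest rises were those of Fabp4 and Car3, which are both abundant in fat cells. Fabp4 encodes a fatty acid binding protein of adipocytes, also made by macrophages and capillary endothelium. On the log2 scale it read 6.57, 5.57 and 5.36 with KDM1A TG sires, against 2.05 and 1.97 with nonTG sires. All 3 KDM1A TG arrays were far above both nonTG arrays, which lay at about the level that the filter on low values uses. The mean was 5.83 ± 0.65 (SD, n = 3) against 2.01 ± 0.05 (SD, n = 2), a log2 change of 3.82 (SE 0.41, adjusted p = 1.758e-10 in limma). Because the nonTG mean lay under the filter level, the rise is given as at least 13.6-fold, the ratio of the KDM1A TG mean to that level. The C57BL/6 arrays read 4.56, 4.66 and 2.62, between the groups compared here.

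Car3 encodes carbonic anhydrase 3, a cytosolic enzyme of muscle and fat. It read log2 7.08, 5.93 and 6.2 with KDM1A TG sires, against 3.75 and 2.14 with nonTG sires. The groups did not overlap, although the 2 nonTG arrays were themselves far apart. Car3 rose 10.99-fold (95% interval 6.41 to 18.9), with a log2 change of 3.46 (SE 0.39, adjusted p = 1.263e-09 in limma). A second Car3 probeset read 5.64, 4.2 and 4.89 against 2.59 and 2.47. It also separated the groups, with a log2 change of 2.38 (adjusted p = 0.006585 where every probeset was a feature). Both Fabp4 and Car3 passed under all 22 alternatives, with log2 changes of 3.45 to 4.27 and of 2.65 to 4.26.

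**Figure D1:**
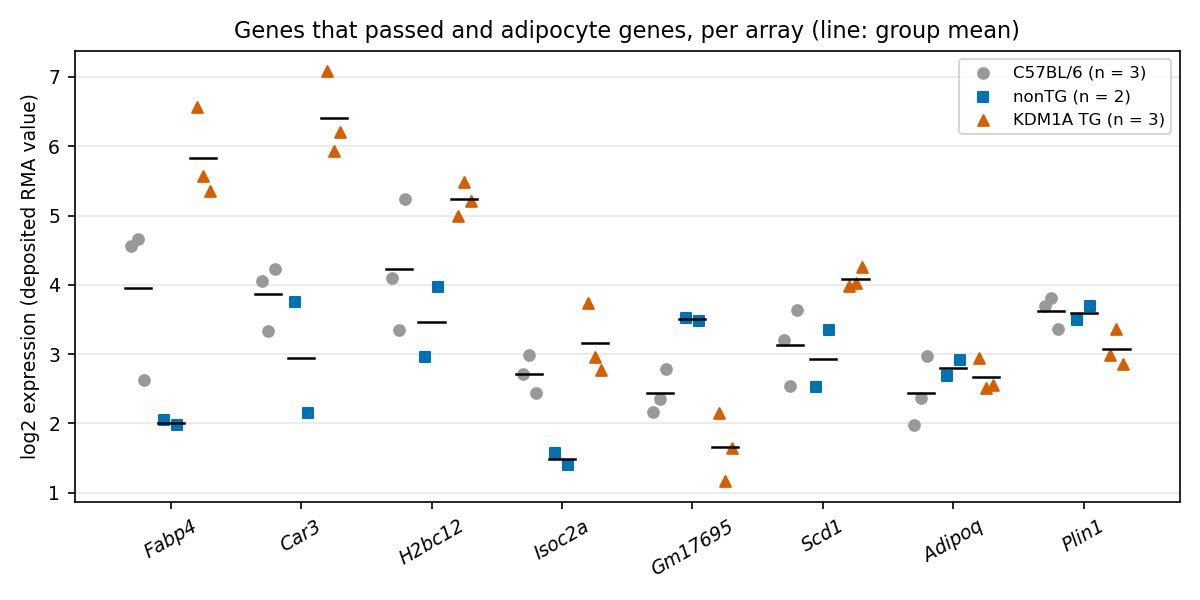
Deposited log2 expression (vertical axis) of the 5 genes that passed and of 3 adipocyte genes that did not, with 1 point per array and a line at each group mean, for embryos of C57BL/6 (n = 3), nonTG (n = 2) and KDM1A TG (n = 3) sires. Fabp4 read 5.36 or more in the KDM1A TG arrays and 2.05 or less in the nonTG arrays, while the adipocyte genes Adipoq and Plin1 had no higher mean in KDM1A TG.

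Fabp4 and Car3 lie near each other on chromosome 3, with 42 RefSeq genes between them in the order of GRCm38.p6. Of these 42 genes, 7 were tested, namely Impa1, Chmp4c, Snx16, Lrrcc1, E2f5, Rbis and Car13. Their log2 changes ran from -0.58 to 0.31 and 0 passed the adjusted test. Among the 25 genes taken on each outer side, 8 were tested, with changes of -0.73 to 0.26 and 0 passing. Fabp5, the epidermal relative of Fabp4 on the same stretch, had a log2 change of -0.17, and Car2, the carbonic anhydrase next to Car3, one of 0.16. The 2 rises were thus not shared by the tested genes around them.

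**Figure D2:**
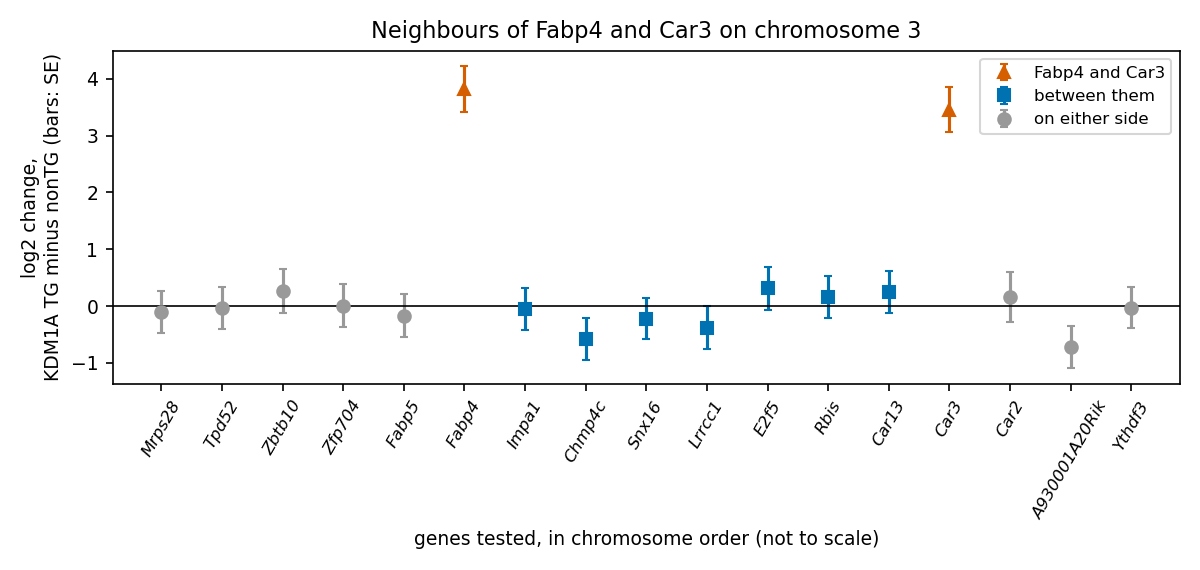
Log2 change of KDM1A TG against nonTG (vertical axis, bars give the SE) for Fabp4, Car3 and the tested genes between and beside them, in chromosome order and not to scale. Fabp4 at 3.82 and Car3 at 3.46 stand above all 15 neighbours, which lie between -0.73 and 0.31.

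Other genes of fat storage and fatty acid synthesis showed smaller differences that did not pass. Of 30 tested genes of fatty acid metabolism and adipocytes, Fabp4 and Car3 among them, 23 had a change above 0 and 8 had KDM1A TG arrays all above the nonTG arrays, where 16% of all genes did. Their median change was 0.37, against 0.16 for all genes, and relative to all genes it was 0.21, or -0.13 without KDM1A TG replicates 1 and 3. Scd1, the desaturase that makes oleate, read log2 3.98, 4.02 and 4.25 against 2.52 and 3.35, a change of 1.15 (SE 0.37, adjusted p = 0.511). Fasn, fatty acid synthase, read 5.34, 4.28 and 5.39 against 4.04 and 3.91, a change of 1.03 (SE 0.37, adjusted p = 0.591). The ranges of both genes did not overlap between groups. Fads2, a desaturase of polyunsaturated fatty acids, had a change of 1.07, Acaca, the acetyl-CoA carboxylase that feeds Fasn, one of 0.50, and Lpl, the lipase that frees fatty acids from lipoproteins, one of 0.75. None of these 3 passed either, at adjusted p = 0.593, 0.847 and 0.775.

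Other adipocyte genes differed among themselves, and those named here were chosen after their values were seen. Adipoq, the adipocyte hormone adiponectin, read 2.95, 2.52 and 2.55 against 2.69 and 2.91, a log2 change of -0.12 (adjusted p = 0.953). Plin1, the coat protein of adipocyte lipid droplets, read 2.98, 3.36 and 2.86 against 3.49 and 3.70, a change of -0.53 (adjusted p = 0.847) with all KDM1A TG arrays below the nonTG arrays. Retn, the fat hormone resistin, was high in a single array, at 5.32 in KDM1A TG replicate 1 against 3.42 and 3.15 in the other KDM1A TG arrays and 3.07 and 3.13 in nonTG. Its log2 change was 0.86 (SE 0.40, adjusted p = 0.772), and its arrays did not overlap. In pooled samples such as these, a change in the number of cells of a type and a change in RNA per cell cannot be told apart.

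Among histone genes, H2bc12 rose. It encodes a replication-dependent histone H2B, and read log2 5.00, 5.49 and 5.21 against 2.96 and 3.97, without overlap. The rise was 3.41-fold (95% interval 1.99 to 5.85), a log2 change of 1.77 (SE 0.39, adjusted p = 0.0494 in limma). The C57BL/6 arrays read 4.10, 3.34 and 5.24 and spanned most of the distance between the groups. H2bc12 lay close to the threshold and passed under 11 of 22 alternatives. It did not pass without KDM1A TG replicate 2 (log2 change 1.64, adjusted p = 0.431), without KDM1A TG replicate 3 (1.78, 0.266) or without nonTG replicate 1 (1.26, 0.435), and the adjusted p ran from 0.000639 to 0.9995 over the alternatives.

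A further pair of histone genes from the same chromosome 13 clusters had the next largest changes in this family. H2bc1 encodes the testis H2B variant TH2B, which is also found in eggs and early embryos. It read 5.75, 6.71 and 6.68 against 4.12 and 5.6, a log2 change of 1.52 (SE 0.39, adjusted p = 0.218). H1f5, a linker histone of dividing cells, read 4.09, 6.10 and 5.36 against 4.09 and 3.18, a change of 1.55 (SE 0.42, adjusted p = 0.245), and its lowest KDM1A TG array met its highest nonTG array. Neither passed with all arrays. H2bc1 passed without KDM1A TG replicate 1 (1.84, adjusted p = 0.0349) and without nonTG replicate 2 (2.26, adjusted p = 0.0219), over a range of 0.0156 to 0.9995, and H1f5 passed without KDM1A TG replicate 1 (2.09, adjusted p = 0.00285), over a range of 0.00285 to 0.9995.

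Promoters of replication-dependent histone genes are known to share short elements, so the 3 promoters with the largest changes are printed here from RefSeq (build GRCm38.p6), 250 bases before to 50 bases after each start, 5′ to 3′ on the strand of the gene. Capitals mark TATAAA (the TATA box), CCAAT (the CCAAT box), ATTTGCAT (the octamer bound by OCT factors, a known element of H2B promoters) and AAACACA (an element of linker histone promoters), each searched on both strands, and no 2 marked matches overlap.
H2bc12: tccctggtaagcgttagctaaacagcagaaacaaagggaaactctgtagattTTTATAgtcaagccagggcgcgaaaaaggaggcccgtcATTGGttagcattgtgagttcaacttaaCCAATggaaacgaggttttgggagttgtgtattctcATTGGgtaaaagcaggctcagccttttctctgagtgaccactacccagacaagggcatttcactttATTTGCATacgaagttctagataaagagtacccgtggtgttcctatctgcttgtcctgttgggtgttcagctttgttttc
H2bc1: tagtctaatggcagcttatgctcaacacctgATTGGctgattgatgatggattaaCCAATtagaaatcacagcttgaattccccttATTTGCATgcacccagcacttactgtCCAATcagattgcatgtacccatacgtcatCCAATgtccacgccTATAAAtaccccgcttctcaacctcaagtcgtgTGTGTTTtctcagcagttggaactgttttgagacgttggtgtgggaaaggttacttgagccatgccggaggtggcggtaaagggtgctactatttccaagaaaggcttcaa
H1f5: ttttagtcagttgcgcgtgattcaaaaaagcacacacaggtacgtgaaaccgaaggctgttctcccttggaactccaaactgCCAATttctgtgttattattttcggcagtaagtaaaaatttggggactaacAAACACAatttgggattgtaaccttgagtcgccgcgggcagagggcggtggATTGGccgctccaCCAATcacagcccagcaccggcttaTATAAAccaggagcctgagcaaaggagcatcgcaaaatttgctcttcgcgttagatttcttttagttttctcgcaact
These windows are chr13:22035571-22035870 on the plus strand for H2bc12, chr13:23934107-23934406 on the minus strand for H2bc1 and chr13:21780576-21780875 on the minus strand for H1f5. Both H2B promoters hold the octamer, at bases -30 to -23 of the start in H2bc12 and -164 to -157 in H2bc1. AAACACA lies at -117 to -111 in H1f5 and, on the opposite strand, at -61 to -55 in H2bc1. TATAAA lies at -28 to -23 in H1f5, at -94 to -89 in H2bc1 and, on the opposite strand, at -198 to -193 in H2bc12. Of 32851 mouse promoters of this length, 13.6% hold TATAAA, 37.4% CCAAT, 1.74% the octamer and 7.18% AAACACA on either strand. Of the tested histone genes, 21 had a promoter in the table, and 9, 16, 6 and 4 of these held the 4 elements in the same order. The octamer was found in 4 of the 5 H2B promoters in that set. Such matches describe the letters of the windows only.

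Across the family, 24 of the 37 histone genes on the array passed the filter on low values and were tested. Of these, 17 had a change above 0, 9 had KDM1A TG arrays all above the nonTG arrays and 1 had them all below. The share without overlap on the higher side was 37.5%, against 16% of all genes. The median change was 0.37, or 0.21 above that of all genes, and it kept its sign relative to all genes in 22 of 22 alternatives (0.12 to 0.44). All 4 linker histone genes were above 0, with a median of 0.76. The 6 H2B genes had a median of 0.80 with 4 above 0, the 11 H2A genes one of 0.27 with 8 above 0, and the 3 H4 genes one of -0.23 with 1 above 0.

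The histone genes on chromosome 13, home of the largest histone cluster, held 7 of the 8 largest changes, with H2ax of chromosome 9 among them. Of 10 tested there, 9 were above 0, with a median of 0.92, while 14 on other chromosomes had a median of 0.11 with 8 above 0. Besides the genes above, H2ac1, the testis H2A variant paired with H2bc1, read 6.71, 7.82 and 6.91 against 5.88 and 6.65 (log2 change 0.88, adjusted p = 0.77). H1f1, a further linker histone, had a change of 1.05 (adjusted p = 0.681), and H2bc3 one of 0.95 (adjusted p = 0.75), both with overlapping arrays. H2ax, the H2A variant phosphorylated at DNA breaks, had a change of 0.96 (adjusted p = 0.689) and H4c12 one of 0.85 (adjusted p = 0.77), both without overlap. H2bc21, on chromosome 3, lay at the other end, at -0.55 (adjusted p = 0.847). Replication-dependent histone genes have near-identical coding copies, so the probesets of a class may share signal, and the split among copies is uncertain.

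**Figure D3:**
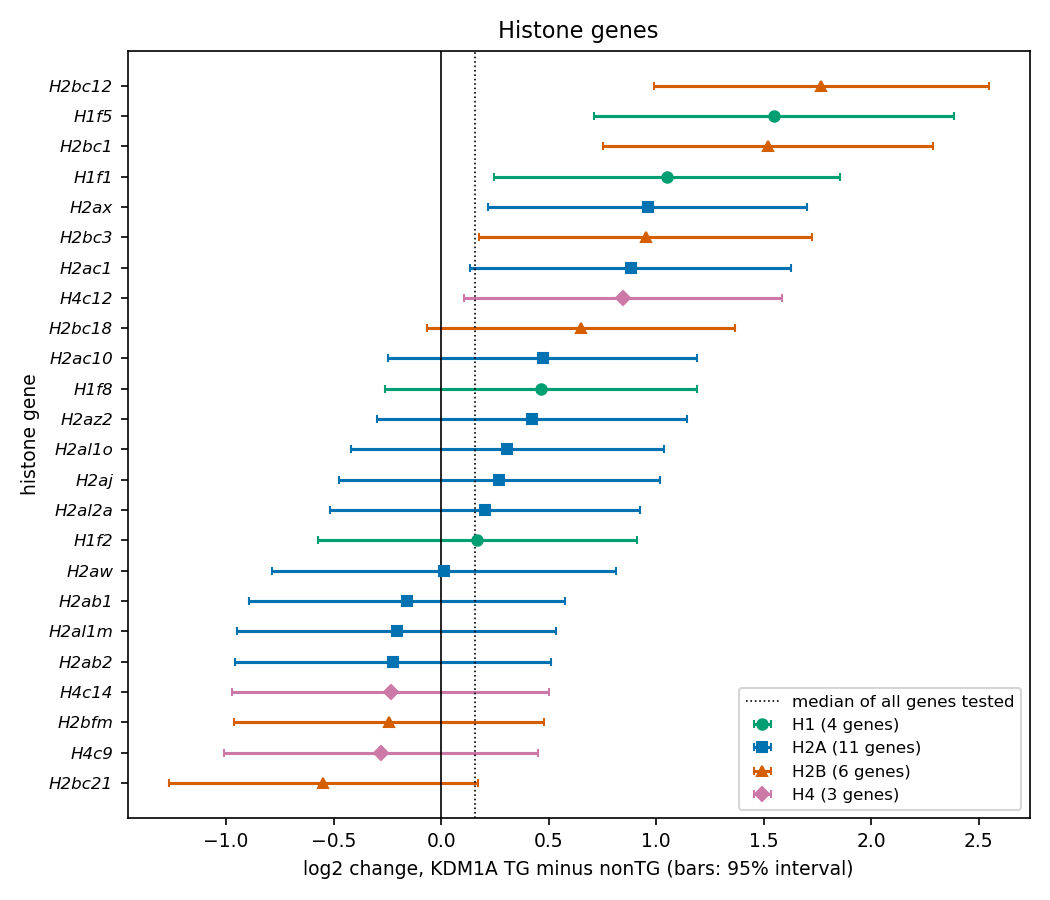
Log2 change of KDM1A TG against nonTG (horizontal axis, bars give the 95% interval) for the 24 tested histone genes, coloured by class, with a dotted line at the median of all genes (0.16). H2bc12, H1f5 and H2bc1 lie between 1.52 and 1.77, and 17 of the 24 genes lie above 0.

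Isoc2a and Gm17695 were the other genes that passed. Isoc2a encodes a protein with an isochorismatase domain. It read 3.74, 2.96 and 2.76 against 1.56 and 1.40, and rose at least 2.12-fold, with a log2 change of 1.67 (SE 0.37, adjusted p = 0.0494 in limma). The C57BL/6 arrays, at 2.72, 2.98 and 2.44, lay near the KDM1A TG values. Gm17695, a predicted gene with no described function, falls outside the rule for named genes and was chosen after its values were seen. It read 2.15, 1.16 and 1.65 against 3.52 and 3.48, and fell at least 2.71-fold, with a log2 change of -1.85 (SE 0.37, adjusted p = 0.0105 in limma). Both genes lay low on the arrays, and a filter at the 50th percentile left them out. Isoc2a did not pass without any 1 of the 5 arrays compared, nor without C57BL/6 replicate 1 (adjusted p from 0.0507 to 0.399 in these fits, 0.00402 to 0.642 over all its alternatives). Gm17695 did not pass without KDM1A TG replicate 2 (log2 change -1.61, adjusted p = 0.259), KDM1A TG replicate 3 (-1.85, 0.0669), nonTG replicate 1 (-1.83, 0.0941) or nonTG replicate 2 (-1.87, 0.109), over a range of 0.000313 to 0.259.

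The genes next in order on the higher side did not pass. They were chosen by smallest p among genes whose KDM1A TG arrays all lay above the nonTG arrays, as in 16% of all genes. Tmem120a, a nuclear envelope protein studied in fat cell differentiation, read 4.48, 4.57 and 4.2 against 3.16 and 2.83, a log2 change of 1.42 (SE 0.36, adjusted p = 0.218). Its C57BL/6 arrays, at 4.30, 4.61 and 4.23, lay with the KDM1A TG arrays. Insl6, a relaxin-family peptide of male germ cells, read 4.61, 4.44 and 4.89 against 3.77 and 2.73 (change 1.40, adjusted p = 0.218), and here the C57BL/6 arrays, at 3.17, 3.1 and 3.0, lay with the nonTG arrays. Nkap, a nuclear protein of RNA splicing and Notch signalling, had a change of 1.38, Nop16, a nucleolar protein of ribosome assembly, one of 1.32, and Gsdmc2, of the pore-forming gasdermins, one of 1.41 (all adjusted p = 0.245). Insl6 passed without nonTG replicate 1 (1.92, adjusted p = 0.0462), over a range of 0.0457 to 0.9995.

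On the lower side, genes of the lens, skin and hair led, all at low levels. Crygb, a lens crystallin, read 2.32, 1.78 and 1.99 against 3.35 and 3.62 (log2 change -1.45, adjusted p = 0.218). Lce1h, of the cornified envelope of skin, read 2.58, 2.21 and 2.29 against 3.56 and 3.93 (change -1.38, adjusted p = 0.218), and Krtap4-8, a hair keratin-associated protein, 2.21, 1.91 and 1.54 against 2.84 and 3.86 (change -1.47, adjusted p = 0.218). None passed, and the KDM1A TG means of Crygb and Krtap4-8 lay under the filter level. Prss3, a trypsin, had a change of -1.30 (adjusted p = 0.321) and Thbs3, a thrombospondin of extracellular matrix, one of -1.24 (adjusted p = 0.339). Hspa12a, a distant member of the Hsp70 family, had one of -1.08 and Diaph2, a formin that builds actin filaments, one of -1.09 (both adjusted p = 0.511). Ppp1r14bl had a change of -1.14 (adjusted p = 0.491). Those of Cyp2d40, Btbd35f16 and Tas2r144 were -1.14, -1.14 and -1.08 (all adjusted p = 0.511). The KDM1A TG means of Ppp1r14bl, Cyp2d40 and Btbd35f16 lay under the filter level.

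Among genes of small RNAs, microRNA precursors and small nucleolar RNAs differed in their pattern. Of 332 microRNA precursor genes on the array 133 were tested, and 71 had a change above 0, with a median of 0.03 against 0.16 for all genes. Relative to all genes the median was -0.13, but 0.11 without nonTG replicate 1 and -0.38 without nonTG replicate 2. Arrays did not overlap in 10 higher and 10 lower precursor genes (7.52% of those tested on each side), where 16% of all genes were higher and 6.38% lower without overlap. The precursor with the largest change in each direction has the following mature sequence in RefSeq (GRCm38.p6), with the seed (bases 2 to 8), which pairs with target RNAs, in capitals.
mmu-miR-5125: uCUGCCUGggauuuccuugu
mmu-miR-1932: gUUGCGGAcagcgcuaggucgg
They lie at chr17:23823339-23823358 and chr11:119390524-119390545, both on the plus strand, and do not share a seed. The Mir5125 precursor read 5.54, 5.74 and 6.03 against 5.25 and 3.08, a log2 change of 1.60 (adjusted p = 0.212). Its difference rested on nonTG replicate 2, since the change was 2.69 (adjusted p = 0.000428) without nonTG replicate 1 and 0.52 without nonTG replicate 2, over a range of adjusted p from 0.000428 to 0.9995. Mir1932 read 5.00, 5.42 and 4.74 against 6.29 and 6.41, a change of -1.29 (adjusted p = 0.281) without overlap. The probesets read the precursor or its host transcript, and the arrays do not measure the mature microRNA.

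Small nucleolar and small nuclear RNA genes, which guide the modification and splicing of other RNAs, lay higher. Of 46 tested, 36 had a change above 0 and 15 had KDM1A TG arrays all above the nonTG arrays (32.6%, against 16% of all genes), with a median of 0.38. Snord15a read 4.55, 5.35 and 5.62 against 4.17 and 3.46 (log2 change 1.36, adjusted p = 0.281). Rnu3a, which encodes the U3 RNA of ribosomal RNA processing, read 3.98, 4.53 and 4.43 against 3.63 and 2.38 (1.31, adjusted p = 0.302), and Scarna6, an RNA of Cajal bodies, 5.39, 5.59 and 4.95 against 3.98 and 4.03 (1.30, adjusted p = 0.263). Snord13 had a change of 1.19 (adjusted p = 0.491), and Snord70 ran the other way at -0.83 (adjusted p = 0.772). None of these genes passed with all arrays. Long non-coding RNA genes had 249 of 589 above 0 and a median of -0.08. All genes in deciles 1 and 2 by level, the lowest, had median changes of -0.11 and -0.07. The part of level in the median of the long non-coding RNA genes was not tested.

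Genes that mark the stage itself did not pass in either direction. Of 37 tested genes switched on at the 2-cell stage, 30 had a change above 0 and 6 had KDM1A TG arrays all above the nonTG arrays (16.2%, close to the 16% of all genes). Pramel6, of a family transcribed in early embryos, read 4.21, 4.54 and 3.77 against 3.23 and 3.07 (log2 change 1.03, adjusted p = 0.591). Obox7, a homeobox gene of eggs and early embryos, read 3.1, 3.76 and 3.07 against 1.16 and 3.25 (1.11, adjusted p = 0.591). The 2 nonTG arrays were far apart, and Obox7 passed without nonTG replicate 2 (2.15, adjusted p = 0.0326, over a range of 0.0326 to 0.9995). Eif1ad, a regulator related to translation initiation factor 1A that the list also holds, had a change of 0.85 (adjusted p = 0.77). Whether Eif1ad marks the 2-cell stage was not checked.

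Of 55 tested genes of RNA stored in the egg, 45 had a change above 0, with a median 0.26 above that of all genes. Fbxw15, an oocyte F-box protein, had a change of 1.23 (adjusted p = 0.511), Bcl2l10, an oocyte survival factor, one of 0.89 (adjusted p = 0.77) and Npm2, the egg nucleoplasmin that remodels sperm chromatin, one of 0.84 (adjusted p = 0.77). Dppa3 had one of 0.81 (adjusted p = 0.775). The direction of both groups depended on which nonTG array was used. Relative to all genes, the median of the 2-cell genes was -0.10 without nonTG replicate 1 and 0.37 without nonTG replicate 2, and that of the egg genes -0.11 and 0.52. The mean log2 level of the egg genes was 3.74 in nonTG replicate 1 and 4.22 in nonTG replicate 2, against 4.06, 4.70 and 4.25 in the KDM1A TG arrays.

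Of 29 lineage and pluripotency genes tested, 22 had a change above 0, with a median 0.06 above that of all genes, and 0 passed. Dppa4 and Dppa2, chromatin proteins that prime 2-cell genes, had log2 changes of 0.92 and 0.94 (both adjusted p = 0.77). Dppa4 read 6.04, 7.13 and 5.73 against 5.45 and 5.30. Dppa2 read 5.69, 6.66 and 5.68 against 4.2 and 5.95, so its arrays overlapped between the groups.

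The partners of KDM1A and the enzymes that write or erase H3K4 methylation did not change by the test. Of 14 tested members and recruiters of KDM1A complexes, 13 had a change above 0, with a median 0.09 above that of all genes (-0.06 without nonTG replicate 1). Ctbp1, a corepressor that recruits KDM1A, read 5.04, 4.27 and 4.72 against 4.17 and 3.75 (log2 change 0.71, adjusted p = 0.775), and Phf21a, the reader of unmethylated H3K4 in the complex, 3.92, 3.79 and 4.32 against 3.78 and 3.41 (0.42, adjusted p = 0.847). Rcor1, the CoREST scaffold, had a change of 0.37 (adjusted p = 0.858) and the deacetylase Hdac1 one of 0.39 (adjusted p = 0.853). Both turned to -0.33 and -0.51 without nonTG replicate 1. Of 21 subunits of H3K4 methyltransferase complexes 15 were above 0 (71.4%, against 65.4% of all genes). Their median lay 0.02 above that of all genes, but relative to it was -0.07 after quantile normalization and -0.17 without nonTG replicate 1. The list was led by Kmt2a (0.89, adjusted p = 0.75), Kmt2d (0.84, adjusted p = 0.77) and the CpG-binding subunit Cxxc1 (0.72, adjusted p = 0.775). The 12 JmjC demethylases were evenly split, with 6 above 0. Kdm5c, which removes H3K4 methylation, had a change of 0.57 and Riox1, a nucleolar JmjC protein, one of -0.52 (both adjusted p = 0.847).

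Other chromatin groups lay slightly above the median of all genes, with 0 members passing. NuRD and deacetylase subunits had 14 of 15 above 0, Polycomb subunits 22 of 24, and factors of DNA methylation and imprint maintenance 14 of 18. Without nonTG replicate 1 the medians of these 3 groups lay below that of all genes, at -0.11, -0.20 and -0.04 relative to it. Uhrf1, which brings the maintenance methyltransferase to replicated DNA, read 3.1, 3.79 and 3.58 against 2.71 and 2.72 (log2 change 0.78, adjusted p = 0.775). Trim28, the corepressor that protects imprints and silences retroviruses, read 6.06, 5.86 and 6.17 against 5.05 and 5.56 (0.73, adjusted p = 0.775). In both genes the arrays did not overlap. Factors of H3K9 and H4K20 methylation had a median 0.25 above that of all genes, with 12 of 15 above 0, and this kept its sign in 22 of 22 alternatives. Of 26 imprinted genes, 20 were above 0 (76.9%, against 65.4% of all genes), but unlike these groups their median lay 0.04 below that of all genes. Mcts2, a retrogene expressed from the paternal allele, read 5.10, 4.82 and 4.43 against 4.40 and 3.08 (1.04, adjusted p = 0.591). Mkrn3 ran the other way, at 2.41, 2.43 and 2.44 against 2.96 and 3.26 (-0.69, adjusted p = 0.792).

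Genes of RNA and protein production lay more often on the higher side, and again 0 of them passed. Of 34 ribosome biogenesis genes 31 were above 0, and in 15 all KDM1A TG arrays exceeded both nonTG arrays (44.1%, against 16% of all genes). For RNA polymerase II and Mediator these counts were 36 and 16 of 40, for the spliceosome 27 and 12 of 33, and for translation initiation factors 26 and 13 of 35. Mean levels of each of these 4 groups were higher in all KDM1A TG arrays than in both nonTG arrays, and so was the mean level of all genes. Relative to all genes their medians were 0.24, 0.21, 0.20 and 0.17, and each kept its sign in 22 of 22 alternatives. After quantile normalization these relative medians were 0.17, 0.10, 0.09 and 0.08. Without nonTG replicate 1 those for ribosome biogenesis and for RNA polymerase II and Mediator were 0.06 and 0.05. The 4 groups had mean log2 levels of 4.60 to 5.76 in KDM1A TG. All genes in deciles 8, 9 and 10 by level, at medians of 4.50, 5.09 and 6.31, had median changes of 0.30, 0.30 and 0.18. The part of level in the group medians was not tested.

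Besides Nop16, described above, the named genes of these groups had log2 changes of about 1 or less. Eif3d, a cap-binding subunit of initiation factor 3, read 6.31, 5.72 and 6.07 against 5.39 and 4.63 (log2 change 1.02, adjusted p = 0.591), and Eif4a1, the RNA helicase of cap-dependent initiation, had a change of 0.84 (adjusted p = 0.77). Taf7, of the TFIID complex, read 4.78, 5.62 and 4.80 against 4.08 and 4.06 (1.0, adjusted p = 0.603), and Gtf2h1, of TFIIH, had a change of 0.99 (adjusted p = 0.627). Polr1d, shared by RNA polymerases I and III, and Nhp2, a core protein of small nucleolar RNA particles, each had one of 0.79 (adjusted p = 0.772). Snrpc, of the U1 particle, had one of 0.83 (adjusted p = 0.77) and Mrpl46, of the mitochondrial ribosome, one of 0.99 (adjusted p = 0.597). None passed. The arrays did not overlap in any of the 8, but these genes were picked by smallest p in their lists, and 16% of all genes were higher without overlap. Cytosolic ribosomal protein genes, with 35 of 45 above 0, had a median only 0.02 above that of all genes, and mitochondrial ribosomal protein genes, with 41 of 48, one 0.06 above.

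**Figure D4:**
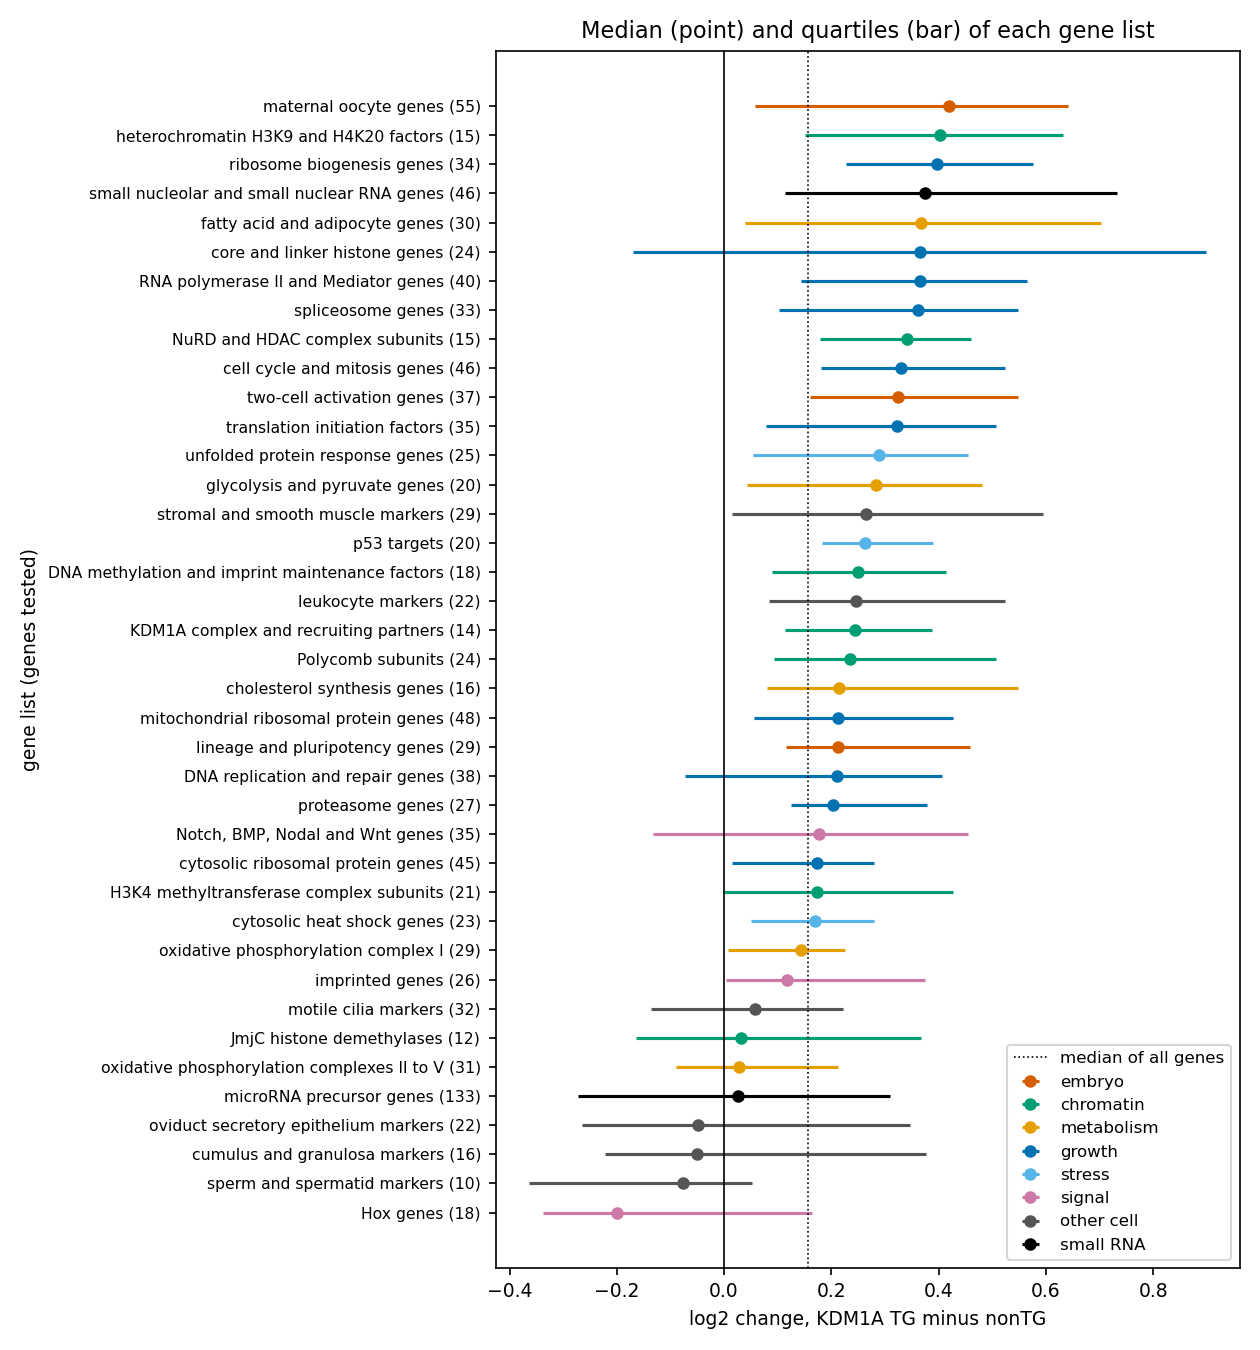
Median log2 change of KDM1A TG against nonTG (points) with quartiles (bars) for the 39 gene lists with at least 5 tested genes, coloured by kind, with a dotted line at the median of all genes (0.16). Egg genes lie highest at 0.42 and Hox genes lowest at -0.20, and most lists of growth genes lie on the right of the dotted line.

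Genes of cell division, metabolism and stress also had 0 members that passed, apart from the fatty acid and adipocyte genes described above. Of 46 cell cycle and mitosis genes 38 were above 0, led by Ndc80, of the outer kinetochore (0.95, adjusted p = 0.705), and the mitotic kinase Plk1 (0.88, adjusted p = 0.758), but the group's median relative to all genes was 0.17 with all arrays, 0.44 without nonTG replicate 2 and 0.00 without nonTG replicate 1. Of 20 glycolysis genes 15 were above 0, led by Pgam1, phosphoglycerate mutase (0.96, adjusted p = 0.695). A second Pgam1 probeset had a change of 0.45. Of 16 cholesterol synthesis genes 13 were above 0, led by Hmgcs1, which makes HMG-CoA (0.84, adjusted p = 0.77). Oxidative phosphorylation genes of complexes II to V lay near 0, with 17 of 31 above and a median 0.13 below that of all genes. Of 20 p53 targets 17 were above 0, and Tigar, which diverts glucose from glycolysis, read 5.36, 5.84 and 5.05 against 4.02 and 4.59 (1.11, adjusted p = 0.511). Of 25 genes of the unfolded protein response 20 were above 0, led by the stress factor Ddit3 (0.94, adjusted p = 0.705). Hox genes, which pattern the later embryo, lay lowest of these groups, with 6 of 18 above 0 and 5 lower without overlap, where 6.38% of all genes were. Hoxa5 ran against them at 0.75 (adjusted p = 0.775).

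Markers of other cells that a flushed pool can hold varied between arrays within both groups. The mean log2 level of 22 oviduct secretory epithelium markers was 5.33, 4.89 and 5.78 in KDM1A TG against 5.57 and 4.99 in nonTG, so the groups overlapped. Of these 22, 10 had a change above 0 and 12 below. In 3 (13.6%) all KDM1A TG arrays were lower, against 6.38% of all genes, and in 1 (4.55%) higher, against 16%. Their median relative to all genes was -0.21, but 0.21 without nonTG replicate 1. Sprr1a, of this list, had a change of -0.78 (adjusted p = 0.791) without overlap. The mean log2 level of 29 stromal and smooth muscle markers was 4.43, 4.11 and 5.55 against 5.02 and 3.81, high in KDM1A TG replicate 3 and nonTG replicate 1. Col1a1, the collagen of stroma, read 5.78, 5.49 and 6.85 against 6.16 and 2.70 (log2 change 1.60, adjusted p = 0.281), and Dcpp3, a secreted protein of the oviduct, 5.69, 5.85 and 8.97 against 7.60 and 2.99 (1.55, adjusted p = 0.681). Without nonTG replicate 2 these changes turned to -0.12 and -0.76. Without nonTG replicate 1 both passed, at 3.33 (adjusted p = 3.784e-05) and 3.85 (adjusted p = 0.00241), and Dcpp3 also passed without KDM1A TG replicate 1 (2.12, adjusted p = 0.00285). Their difference thus depended on the nonTG array taken.

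Blood cells and follicle cells were also examined, since macrophages and endothelium are known to make Fabp4. The mean of 22 leukocyte markers was 3.61, 3.27 and 3.67 against 3.56 and 2.85, with 17 above 0, 5 below and 0 passing. In 3 (13.6%) all KDM1A TG arrays were higher, against 16% of all genes. Relative to all genes their median was 0.09, but 0.40 without nonTG replicate 1 and -0.06 without nonTG replicate 2. The leukocyte genes named here are all from the 17 above 0. C1qb, a complement protein of macrophages, read 4.02, 3.90 and 4.84 against 3.31 and 3.04 (log2 change 1.08, adjusted p = 0.53), Lyz2, a lysozyme of myeloid cells, had a change of 0.63 (adjusted p = 0.828), and H2-Ab1, of MHC class II, one of 1.28 (adjusted p = 0.53) that turned to -0.20 without KDM1A TG replicates 1 and 3. Of the red cell and endothelial markers, only Emcn and Cdh5, both of endothelium, were tested. Emcn read 2.72, 2.15 and 2.86 against 3.51 and 3.31 (-0.84, adjusted p = 0.77), lower in all KDM1A TG arrays, and Cdh5 read 2.70, 2.53 and 3.60 against 2.84 and 3.01 (0.02, adjusted p = 0.995), with overlap. Of 16 cumulus and granulosa markers 5 were above 0 and 11 below, with a median 0.21 below that of all genes. In 3 (18.8%) all KDM1A TG arrays were lower, against 6.38% of all genes, and in 2 (12.5%) higher, against 16%. Hsd3b1 had a change of 1.19 (adjusted p = 0.593) and Star one of 0.89 (adjusted p = 0.772), both of steroid synthesis. The nonTG mean of Hsd3b1 lay under the filter level, and its KDM1A TG arrays read 2.38, 1.55 and 3.98. Ereg ran the other way at -0.75 (adjusted p = 0.775), without overlap. Of 10 sperm and spermatid markers 4 were above 0. Fabp4 and Car3 had log2 changes of 3.77 and 3.45 when the mean level of the oviduct secretory markers entered the fit. That mean covers 1 cell type of the oviduct and overlapped between the groups. The part of any other cell type in the 2 changes, the oviduct included, was not tested.

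The tilt of all genes toward higher values depended on their level and on scaling. As deposited, the median change rose from -0.11 in the lowest decile of genes by level to 0.30 in decile 8 and was 0.18 in the highest. After quantile normalization it lay between 0.02 and 0.07 in every decile, and over all genes it was 0.05 after quantile normalization or cyclic loess. The interquartile ranges given above were wider in all 3 KDM1A TG arrays than in both nonTG arrays. After quantile normalization or cyclic loess Fabp4 and Car3 passed, and H2bc12, Isoc2a and Gm17695 did not.

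**Figure D5:**
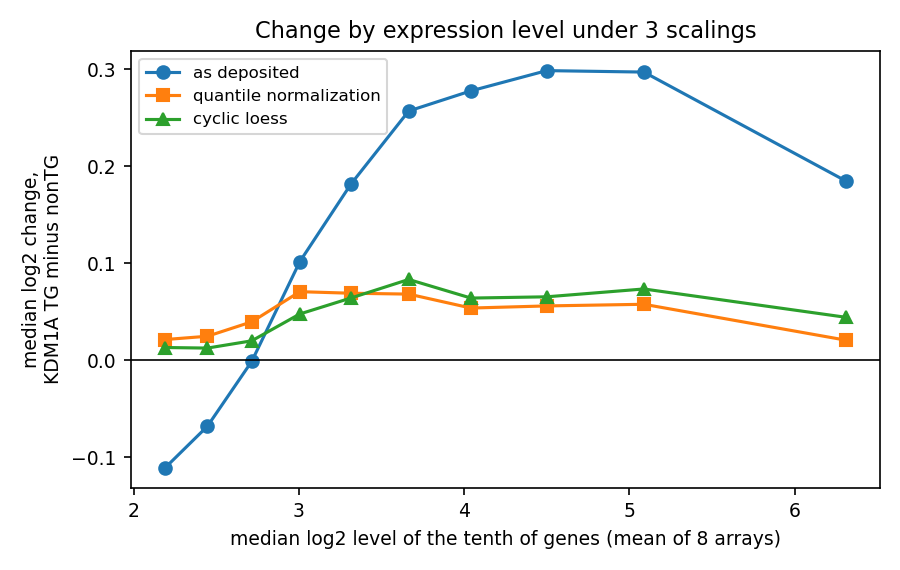
Median log2 change of KDM1A TG against nonTG (vertical axis) in deciles of the 11444 genes by median log2 level (horizontal axis), for values as deposited, after quantile normalization and after cyclic loess. The deposited values rise from -0.11 to 0.30 with level, and the quantile normalized values stay between 0.02 and 0.07.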

How the data were processed

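The authors deposited 1 log2 value per probeset and array (Affymetrix). Their tools were RMA, oligo, limma and R 3.1.0, per the submitters' processing notes, in roles that are not stated, and any filter on probesets is not given in the sources used here. Of 22961 probesets, 15745 carried 1 gene symbol in the platform annotation, 1320 several and 5896 were unnamed here. Of the probesets with 1 symbol, 15621 matched NCBI RefSeq (GRCm38.p6) by gene identifier, which was used for names, neighbour order, promoters and microRNAs. The brightest probeset by the mean of 8 arrays stood for a gene (574 genes had several). Group means were fitted on all 8 arrays in limma 3.58.1 (lmFit, eBayes; R 4.3.3). KDM1A TG minus nonTG was tested two-sided at 0.05, with p-values of 11444 genes adjusted by Benjamini-Hochberg. Log2 changes are as measured. A fold with 1 mean under the filter level (log2 2.07) is written "at least" and divides the brighter mean by that level, a bound without its error. No scanner files were used here, so no value is called above background.

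The members and the 40 gene lists were chosen with earlier results of these data known, and lists are described by counts and medians without a test. Named genes are those that passed, filled to 12 on each side by smallest p among genes whose arrays did not overlap, without predicted genes, pseudogenes, receptors of smell and antigen receptor segments, and up to 3 per list by smallest p. Genes named for their role (Adipoq, Plin1, Acaca, Lyz2, Phf21a, Hdac1, Rcor1 and some others) were chosen after their values were seen. Alternatives changed the filter, scaling, variance model, arrays in the fit, array weights, replicate number as a block, probeset choice and thresholds, and left out each array. The fit was tested on simulated data.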

Additional observations from a re-analysis of the deposited data

Results flagged for a closer look

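A pair of probesets that the platform annotation used here does not list, and that therefore entered no gene comparison, differed between the groups where every probeset was a feature. Probeset 17514255 read log2 4.35, 4.92 and 5.01 in KDM1A TG against 2.57 and 2.59 in nonTG, a change of 2.18 (adjusted p = 0.006585 in limma), and its C57BL/6 arrays read 2.95, 2.71 and 3.36. Probeset 17525892 read 3.93, 4.70 and 3.96 against 2.07 and 1.94, a change of 2.19 (adjusted p = 0.0347), while its C57BL/6 arrays, at 4.23, 5.26 and 3.59, lay with the KDM1A TG arrays. What these probesets measure is not named here.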

How the results depend on the processing

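Fabp4 and Car3 passed under all 22 alternatives. The number of genes that passed (5, with 4 higher and 1 lower) moved with several choices. It was 2 (2 higher, 0 lower) with the filter at the 50th percentile, after quantile normalization and after cyclic loess, 9 (3 lower) with a robust intensity trend and 3 (0 lower) with array weights. It was 3 (2 higher) with the mean of probesets or without KDM1A TG replicates 1 and 3, and 28 (23 higher, 5 lower) with the oviduct marker covariate. Without a filter 3 genes were lower, and with every probeset a feature 0 were. Leaving out 1 array gave 2 to 17 genes (2 to 17 higher, 0 to 2 lower), with 2 of them without KDM1A TG replicate 2 or 3, 8 without KDM1A TG replicate 1, 17 without nonTG replicate 1 and 11 without nonTG replicate 2. Leaving out 1 array turned the changes of Hdac1 (-0.51 to 1.30), Rcor1 (-0.33 to 1.06), Col1a1 (-0.12 to 3.33) and Dcpp3 (-0.76 to 3.85), with the first 2 negative without nonTG replicate 1 and the last 2 without nonTG replicate 2. Leaving out KDM1A TG replicates 1 and 3 together turned that of H2-Ab1 (-0.20). Cdh5 had a change near 0 (0.02) and turned to -0.054 with quantile normalization, -0.0072 with cyclic loess, -0.012 with array weights, -0.20 with the replicate block, -0.0006 with the oviduct marker covariate and -0.40 without KDM1A TG replicates 1 and 3, and ran from -0.31 to 0.22 without 1 array. The cause of these shifts was not tested. With the replicate number as a block 4 genes passed (3 higher, 1 lower), without H2bc12, whose change was 1.52 (adjusted p = 0.358). Deviations from the group means correlated at 0.11 and 0.18 between KDM1A TG and nonTG arrays of the same number and at 0.11 for KDM1A TG replicate 3 with nonTG replicate 1. The 2 groups share only 2 numbers and the labels do not say what a number marks, so the numbers were not read as pairs. Of 40 lists, 29 had a median above that of all genes.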
